A study of Mus musculus with 9 samples.

Results

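Surface receptors of blood and marrow cells were followed in castrated and sham-operated C57BL/6 mice: the CD antigens, the integrin chains, the chemokine receptors and the interleukin receptors. Members were chosen by gene symbol, on array features annotated to a single gene. The symbol was Cd followed by digits, started with Itga, Itgb, Ccr or Cxcr, or was Il followed by digits and r. Of 61 such genes, 52 were measured on 2 or 3 arrays in every group, and these are the members, averaged from 73 features. The other 9 were Cd248, Cd28, Cd86, Cd96, Il13ra2, Itga7, Itga9, Itgae and Itgb8. The rule leaves out a further 7 genes of the same pattern: Cd79b, Itga2b, Itgam, Ccr2, Il7r, Il2rb and Il1r2. All 52 members entered a fit over 7170 rows, of which 4775 were named genes and the remainder features without a single gene. The rule reads no measured value other than whether one is present, but it was drawn up with earlier results of these data known.

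Each array compared a castrated mouse with a sham-operated mouse, one labelled with Cy5 and the other with Cy3. The 3 groups were bone from mice aged 17 weeks, marrow from mice aged 17 weeks, and specimens labelled bone marrow from mice aged 59 weeks, with 3 mouse pairs each. Castration or the sham operation was at 7 weeks of age in all groups, so the old mice were the longer past the operation. The design text mentions parting marrow from bone with regard to young animals, and it is not given in the sources used here if bone remained in the old specimens. The castrated mouse carried Cy3 on young bone replicate 3, young marrow replicate 2 and old replicate 2, and Cy5 on the other 6 arrays.

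Integrins are paired alpha and beta chains that fix cells to matrix, vessel wall and one another, and each leukocyte class carries its own set. Interleukin and chemokine receptors are mostly paired or single chains through which marrow cells receive signals for growth, activation and homing, and a shared chain often serves several ligands. Many CD antigens are used to sort marrow cells, so in whole tissue their RNA reports both how many such cells are present and how much RNA each holds. In these bulk specimens fewer cells of a type and less RNA per cell cannot be told apart.

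The deposited values are log ratios, read here as log2. Their direction is not stated, and the deposited sign was kept on every array, with a value above 0 taken as likely higher in the castrated mouse, because each label describes castrated against sham. The other reading, named the channel reading here, takes the value as Cy5 over Cy3 and turns the sign of the 3 arrays with the castrated mouse in Cy3. A castration effect of one deposited sign under the first reading becomes a dye effect under the second, and these cannot be told apart. Arrays held 8290 to 10995 values, with an SD across features of 0.192 to 0.294, except old replicate 1 with 0.454. The median over the rows tested lay between -0.02 and 0.01 on every array except old replicate 1, where it was -0.11. Ratios give no levels, so whether the specimens hold the labelled tissue could not be checked by how abundant its markers are. Precision is limited by the number of arrays, and the p-values measure the spread between these mouse pairs.

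In the average over the 3 groups, 8 of the 52 members (15.4%) passed limma's test at an adjusted p under 0.05, where 3.91% of all rows passed. Below 0 were 6 of them, Il18rap, Il1rap, Cd52, Itgb2, Cd63 and Itga3, against 1.95% of all rows called below 0. Above 0 were Ccr7 and Cd22, against 1.95% of all rows called above 0. Averages of the members ran from -0.52 to 0.48, with a median of -0.06 against 0.00 over all rows, and 32 of 52 lay below 0. At an unadjusted p under 0.05 stood 22 members, 8 above and 14 below 0, against 16.0% of all rows. Under the channel reading 0 members passed (limma, smallest adjusted p 0.89, and 0 at an unadjusted p under 0.05), as did 0 of the 7170 rows (337 at an unadjusted p under 0.05).

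**Figure D1:**
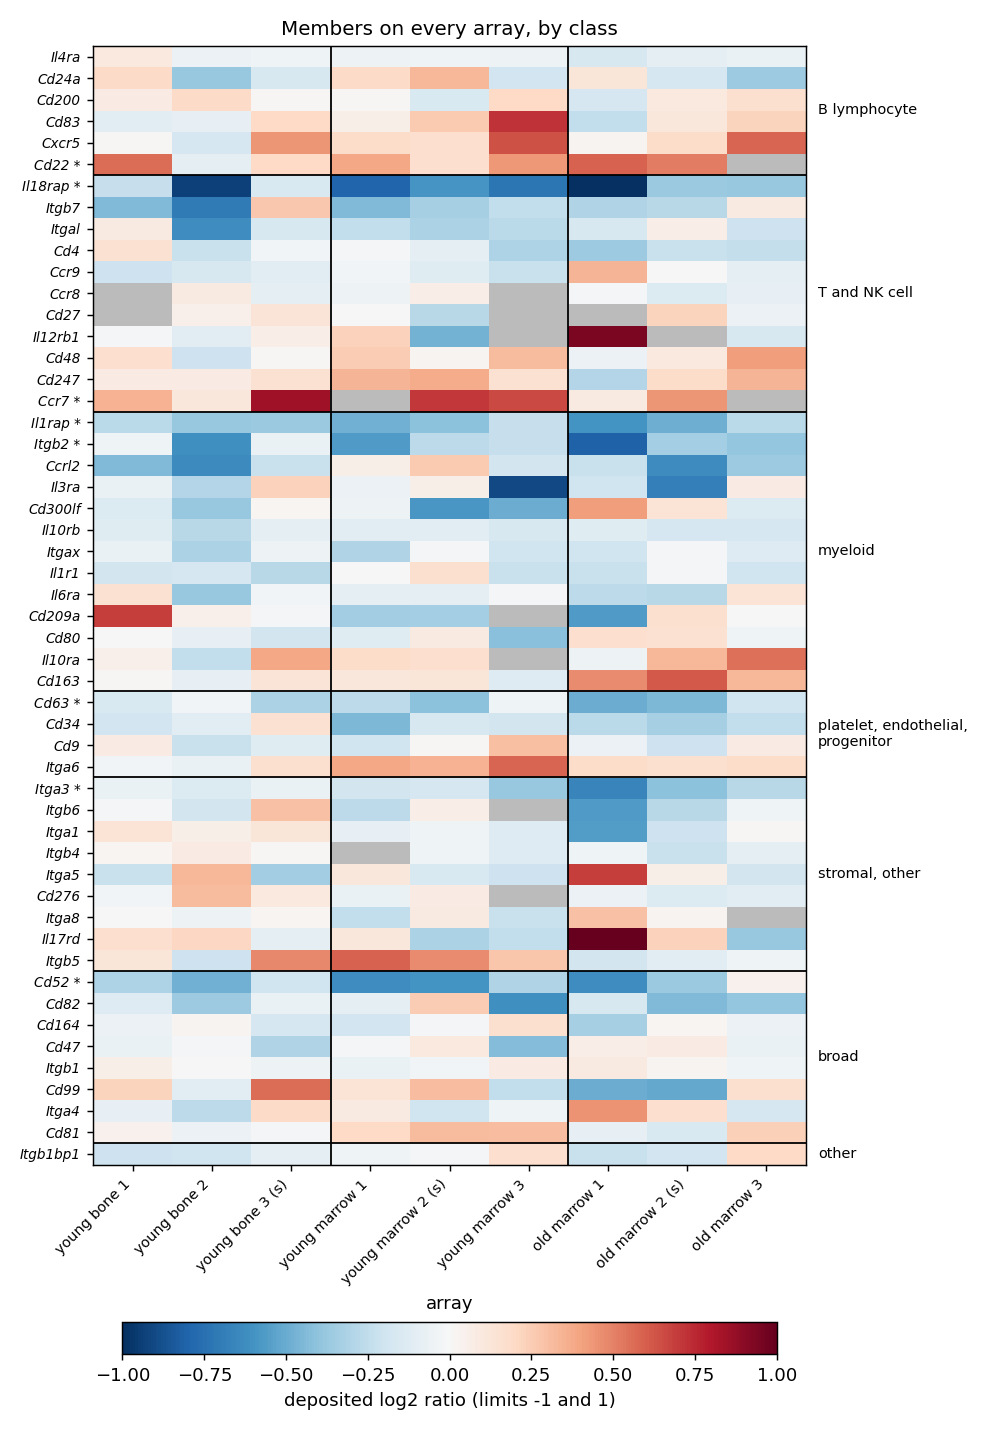
The deposited log2 ratio of each of the 52 members (rows, by class and then by average) on the 9 arrays (columns; s marks an array with the castrated mouse in Cy3), on a colour scale limited to -1 and 1, with grey for no value and an asterisk for the 8 members called in the average. Il18rap and Il1rap are blue across all 9 columns, Ccr7 is red on all 7 arrays that measured it, and old replicate 1 holds the most extreme colours.

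Taken group by group, fewer members passed. In young bone 0 of 52 passed, against 0.321% of all rows, and the smallest adjusted p was 0.18 for Ccr7 (limma). At an unadjusted p under 0.05 stood 5 members there, near the 8.52% of all rows. In young marrow 0 passed, against 0.739% of all rows, and the smallest adjusted p was 0.062 for Itga6 (limma). At an unadjusted p under 0.05 stood 16 members, 8 above and 8 below 0, against 10.3% of all rows. In the old group 1 passed, Cd163, against 0.851% of all rows, with 13 members at an unadjusted p under 0.05, 3 above and 10 below 0, against 18.5% of all rows.

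A single deposited sign on all 9 arrays was seen for 7 of the 41 members with 9 values (17.1%), against 4.29% of all rows with 9 values. All 7 were below 0 on every array: Il18rap, Il1rap, Itgb2, Il10rb, Itgax, Cd63 and Itga3. For Itga3 this holds on the feature used, and not on a further spot that did not meet the filter. Of the 11 members with fewer values, Ccr7 alone kept one sign, above 0 on 7 of 7 arrays. Among the 8 members called in the average, 6 had one sign throughout, and Cd52 and Cd22 each had 1 array on the other side.

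The call count in the average moved with single arrays, among the members and over all rows alike. With old replicates 1, 2 and 3 left out in turn, 5, 1 and 9 members were called, against 3.79%, 1.09% and 6.46% of all rows. Without young bone replicates 1, 2 and 3 these were 5, 5 and 1 members, against 2.78%, 2.73% and 1.49%. Without young marrow replicates 1, 2 and 3 they were 3, 1 and 4 members, against 1.98%, 1.03% and 2.54%. Each array with the castrated mouse in Cy3 thus left 1 call when it was left out: Il1rap without old replicate 2 or young bone replicate 3, and Ccr7 without young marrow replicate 2. The fit with a dye term gives those 3 arrays as much weight together as the other 6. Il1rap was called in 8 of the 9 fits that left out an array, Il18rap and Ccr7 in 6, Cd63 in 5, Cd52 in 3, Cd22 and Itgb2 in 2, and Itga3 in 1. The sign of the average stayed the same for these 8 members in all 9 of those fits.

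The myeloid class held 13 members: the beta chain Itgb2 and the alpha chain Itgax of the leukocyte integrins, the interleukin receptor chains Il1r1, Il1rap, Il3ra, Il6ra, Il10ra and Il10rb, the chemokine-binding receptor Ccrl2, the macrophage scavenger receptor Cd163, the lectin Cd209a, the costimulatory ligand Cd80, and Cd300lf. Averages lay below 0 for 11 of the 13, with a median of -0.12, and 2 were called, both below 0. Over all 52 members the share called was the same, 15.4%, and of all 7170 rows 3673 lay below 0. The class median was below 0 on all 9 arrays, between -0.29 and -0.02, as was the median of all 52 members, between -0.18 and -0.01.

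Il1rap, the accessory chain that interleukin-1 and interleukin-33 receptors need in order to signal, had the smallest adjusted p of all members. It read -0.27, -0.38 and -0.37 on young bone replicates 1 to 3, -0.48, -0.41 and -0.23 in young marrow, and -0.60, -0.49 and -0.27 in the old group. The 3 groups overlapped, and no array lay above -0.23. Its average was -0.40 (SE 0.06, limma adjusted p = 0.0041, 9 arrays), and 0.03 under the channel reading. Il1r1, the ligand-binding chain that pairs with it, averaged -0.11 (SE 0.06, limma adjusted p = 0.41), and Il1rap was the lower of the pair on 9 of 9 arrays.

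Itgb2, the beta chain of the leukocyte integrins that hold granulocytes, monocytes and lymphocytes to the vessel wall, read -0.04, -0.61 and -0.07 in young bone, -0.57, -0.26 and -0.23 in young marrow, and -0.81, -0.34 and -0.39 in the old group. Young bone replicates 1 and 3 lay close to 0 and old replicate 1 lay lowest. The average was -0.33 (SE 0.08, limma adjusted p = 0.046), and -0.11 under the channel reading. With the replicate number as a block the adjusted p was 0.058 (limma). Itgax, an alpha chain of dendritic cells and macrophages that pairs with Itgb2, lay between -0.32 and -0.01 with an average of -0.12 (SE 0.05, limma adjusted p = 0.31). Itgax and Itgb2 had the same sign on 9 of 9 arrays, and Itgb2 was the lower on 8. Itgal, the alpha chain that makes LFA-1 with Itgb2, averaged -0.19 (SE 0.08, limma adjusted p = 0.25) and shared its sign on 7 of 9 arrays.

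Cd163, which takes up haemoglobin bound to haptoglobin and marks tissue macrophages, was the single member called in a group of its own. It read 0.47, 0.61 and 0.33 on old replicates 1 to 3, against 0.01, -0.08 and 0.13 in young bone and 0.11, 0.12 and -0.13 in young marrow. With the deposited sign kept, the old arrays did not overlap the young ones. The fitted value in the old group was 0.50 (95% interval 0.31 to 0.69, limma adjusted p = 0.031), against 0.05 in young bone and 0.06 in young marrow. That call was kept in 1 of the 9 fits that left out an array, the fit without old replicate 3, and the highest adjusted p among them was 0.43, while the value stayed between 0.47 and 0.54. Under the channel reading the old group value was 0.00.

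Among the other myeloid members, Ccrl2, which binds chemokines without signalling as a classical receptor does, averaged -0.25 (SE 0.07, limma adjusted p = 0.10). Its ratios were -0.44, -0.64 and -0.22 in young bone, 0.06, 0.26 and -0.18 in young marrow, and -0.22, -0.63 and -0.36 in the old group, so that 2 marrow arrays stood above 0. Il10rb, a chain shared by receptors of the interleukin-10 family, had small values below 0 on all 9 arrays, between -0.28 and -0.09, with an average of -0.14 (SE 0.05, limma adjusted p = 0.17). Its partner Il10ra, named after its values were seen, averaged 0.19 (SE 0.09, limma adjusted p = 0.30) and was the higher on all 8 arrays that measured both. Il6ra, the ligand-binding chain for interleukin-6, averaged -0.10 (SE 0.07, limma adjusted p = 0.59).

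The T lymphocyte and NK cell class held 11 members: Cd4, Cd27, Cd48, Cd247, the chemokine receptors Ccr7, Ccr8 and Ccr9, the cytokine receptor chains Il12rb1 and Il18rap, and the integrin chains Itgal and Itgb7. Their averages had a median of -0.03, with 1 called above and 1 called below 0. The 2 calls, Ccr7 and Il18rap, were the highest and the lowest of all 52 averages with the deposited sign kept. Under the channel reading Ccr7 was the lowest at -0.17 and Il12rb1 the highest at 0.25.

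Il18rap, the accessory chain of the interleukin-18 receptor on NK and T cells, read -0.23, -0.93 and -0.15 in young bone, -0.79, -0.59 and -0.72 in young marrow, and -1.0, -0.37 and -0.38 in the old group. Young marrow was the most even of the groups, and young bone ran from the second lowest value of all arrays to the highest. The average was -0.52 (SE 0.09, limma adjusted p = 0.010), and -0.15 under the channel reading. It was the one member still called on the 6 arrays with the castrated mouse in Cy5.

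Ccr7, the receptor that brings T cells, B cells and dendritic cells to lymph nodes, read 0.35, 0.11 and 0.85 in young bone, 0.71 and 0.66 on young marrow replicates 2 and 3, and 0.09 and 0.44 on old replicates 1 and 2. The groups overlapped, and the array with the castrated mouse in Cy3 was the highest of each group. The average was 0.48 (SE 0.07, limma adjusted p = 0.011, 7 arrays), and -0.17 under the channel reading, so that its sign depends on the reading. Cd247, the zeta chain of the T cell receptor complex, averaged 0.17 (SE 0.07, limma adjusted p = 0.24), above 0 on 8 of 9 arrays. Itgb7, the beta chain of gut-homing integrins, averaged -0.23 (SE 0.09, limma adjusted p = 0.25). Of the T cell markers Cd3d, Cd3e, Lck, Thy1 and Trac only Thy1 was measured, with an average of -0.30 (limma adjusted p = 0.13).

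**Figure D2:**
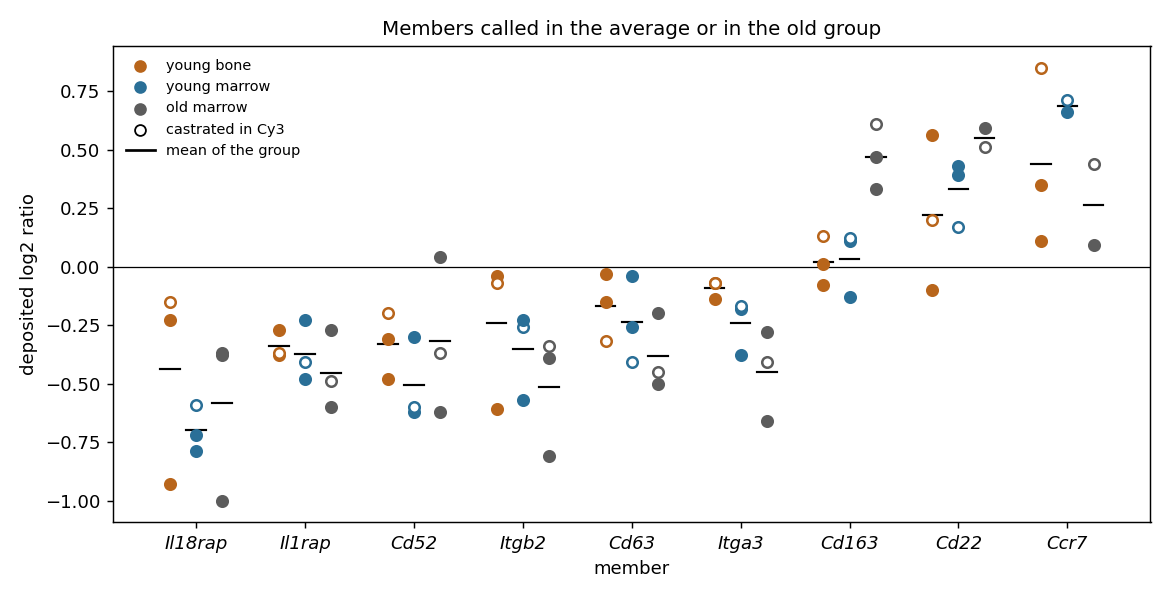
The deposited log2 ratio on each array (points; open where the castrated mouse was in Cy3) for the 8 members called in the average and for Cd163, called in the old group, with a bar at the mean of each group of up to 3 arrays. Il1rap stays between -0.60 and -0.23 in all groups, while the old arrays of Cd163, from 0.33 to 0.61, lie above all young ones.

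The B lymphocyte class held 6 members: Cd22, Cd24a, Cd83, Cd200, the chemokine receptor Cxcr5 and the interleukin-4 receptor chain Il4ra. Their averages had a median of 0.09, and 1 was called, above 0. Cd22, an inhibitory coreceptor of the B cell receptor, read 0.56, -0.10 and 0.20 in young bone, 0.39, 0.17 and 0.43 in young marrow, and 0.59 and 0.51 on old replicates 1 and 2. Young bone replicate 2 alone lay below 0, and the groups overlapped. The average was 0.35 (SE 0.08, limma adjusted p = 0.043, 8 arrays), and 0.04 under the channel reading.

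Cxcr5, which guides B cells into follicles, averaged 0.24 (SE 0.09, limma adjusted p = 0.22), with values from -0.17 in young bone to 0.64 in young marrow. Its 3 features, from 2 sequence accessions, gave averages of 0.16 to 0.29. Cd83, a marker of activated B cells and dendritic cells, averaged 0.14 (SE 0.08, limma adjusted p = 0.48) and reached 0.72 on young marrow replicate 3. Beside these stand the B lymphocyte markers Vpreb3, Pou2af1, Blk and Cd79b, 4 measured of 6 listed, all called above 0, with a median of 0.60 to 0.89 on the young bone arrays, 0.94 to 1.21 in young marrow and 0.95 to 1.25 in the old group. Members of the class stood under those markers, but the markers were chosen with earlier results of these data known. Cd79b fits the name pattern of the members and was left out of them by the rule, so no conclusion is drawn from the gap. The part of B cell number in the values of the class was not tested.

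The platelet, endothelial and progenitor class held Cd9, Cd34, Cd63 and Itga6, with a median average of -0.12 and 1 call, below 0. Cd63, a tetraspanin of late endosomes and platelet granules, read -0.15, -0.03 and -0.32 in young bone, -0.26, -0.41 and -0.04 in young marrow, and -0.50, -0.45 and -0.20 in the old group. All 9 values were below 0, and the array with the castrated mouse in Cy3 was the lowest in both young groups. The average was -0.29 (SE 0.06, limma adjusted p = 0.019), and 0.10 under the channel reading.

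Itga6, a laminin-binding alpha chain of stem cells and megakaryocytes, did not pass in the average, at 0.22 (SE 0.05, limma adjusted p = 0.055). It read 0.39, 0.35 and 0.58 in young marrow, 0.18, 0.16 and 0.18 in the old group, and -0.03, -0.07 and 0.16 in young bone. With the deposited sign kept, all young marrow arrays stood above all others. The channel reading gave Itga6 0.13 in young marrow, against -0.16 in young bone and 0.00 among the old mice. Cd34, a sialomucin of stem and progenitor cells and of endothelium, averaged -0.18 (SE 0.06, limma adjusted p = 0.13), above 0 only on young bone replicate 3. Of the megakaryocyte markers, 2 of 4 were measured: Itga2b averaged 0.45 (limma adjusted p = 0.030) and Pf4 averaged 0.12. The 2 markers together had a median of 0.40 to 0.53 on the young marrow arrays, 0.16 to 0.45 in the old group and -0.11 to 0.26 in young bone. Their part in the Itga6 values was not tested.

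The stromal and other non-blood class held 9 members, the integrin chains Itga1, Itga3, Itga5, Itga8, Itgb4, Itgb5 and Itgb6 with Cd276 and Il17rd, with a median average of -0.03. Itga3, a laminin-binding alpha chain of epithelium and other tissue cells, was the single call, below 0. It read -0.07, -0.14 and -0.07 in young bone, -0.18, -0.17 and -0.38 in young marrow, and -0.66, -0.41 and -0.28 in the old group. With the deposited sign kept, all young bone arrays lay above all others, and young and old marrow overlapped. The average was -0.25 (SE 0.06, limma adjusted p = 0.043), and -0.03 under the channel reading. With a replicate block the adjusted p was 0.065 (limma). Its beta partner Itgb1, which serves many alpha chains, averaged 0.00 (SE 0.05), and Itga3 was the lower on 9 of 9 arrays. This holds against the mean of 4 Itgb1 features, whose own averages ran from -0.08 to 0.07. Against single features it does not hold on every array: on young bone replicate 3 an Itgb1 feature read -0.35. A further Itga3 spot, with too few values to be used, read -0.15, -0.12 and 0.14 in young bone and 0.03 on old replicate 1.

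Itgb5, which makes a vitronectin receptor with the alpha-v chain, read 0.59, 0.47 and 0.28 in young marrow, -0.18, -0.11 and -0.04 in the old group, and 0.12, -0.21 and 0.48 in young bone. With the deposited sign kept, every marrow array of the young mice was above 0 and every array of the old group below. In the old group this holds for the mean of 2 spots: 1 spot read 0.06 on replicate 3 and the other 0.01 on replicate 2. The average was 0.19 (SE 0.07, limma adjusted p = 0.21), and -0.09 under the channel reading. Itgb6, an epithelial chain that activates transforming growth factor beta, averaged -0.09 (SE 0.07, limma adjusted p = 0.66). Markers of osteoblasts and matrix, Col1a1, Col1a2 and Sparc, 3 measured of 5, had a median of 0.26 to 1.74 on the young bone arrays, 0.27 to 0.81 in young marrow and -0.33 to 0.38 in the old group, with 0 called in the average. Skeletal muscle markers, 4 of 4 measured, had a median of -1.15 to -0.16 in young bone, -0.22 to -0.02 in young marrow and 0.15 to 1.25 in the old group, with 0 called, and neither list's part in the stromal members was tested.

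The broadly expressed class held 8 members: Cd47, Cd52, Cd81, Cd82, Cd99, Cd164, Itga4 and Itgb1. Their median average was -0.03, and 1 was called, below 0. That call, Cd52, is best known from leukocytes, so it does not speak for broadly expressed genes. Cd52, a short glycosylphosphatidylinositol-anchored glycoprotein of lymphocytes, monocytes and granulocytes, read -0.31, -0.48 and -0.20 in young bone, -0.62, -0.60 and -0.30 in young marrow, and -0.62, -0.37 and 0.04 in the old group. Old replicate 3 alone stood above 0, and the groups overlapped. The average was -0.39 (SE 0.08, limma adjusted p = 0.024), and 0.00 under the channel reading.

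Cd82 and Cd81, tetraspanins that organise receptors in the membrane, averaged -0.19 (SE 0.08, limma adjusted p = 0.30) and 0.08 (SE 0.06, limma adjusted p = 0.59). Itga4, the alpha chain of VLA-4, which holds progenitors to marrow stroma, averaged 0.03 (SE 0.08, limma adjusted p = 0.93). It stood above its VLA-4 partner Itgb1 on 4 of 9 arrays, and above Itgb7, with which it makes a gut-homing integrin, on 7 of 9. The last member, Itgb1bp1, carries the name pattern but encodes a cytoplasmic protein that binds the Itgb1 tail, and averaged -0.07 (SE 0.06, limma adjusted p = 0.67).

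**Figure D3:**
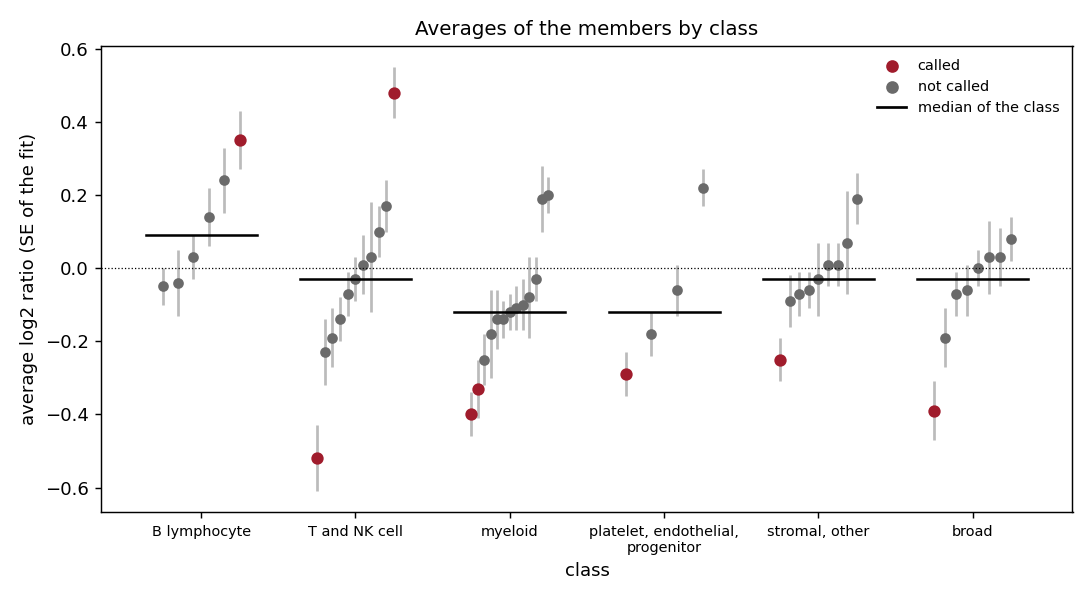
The fitted average log2 ratio of each member (point, with the SE of the fit as a bar) by class, with called members in red and a line at the median of each class; Itgb1bp1 is not drawn. The myeloid and the platelet, endothelial and progenitor classes have their median at -0.12, and the B lymphocyte class has the highest at 0.09. Under the channel reading, which is not drawn, these medians were -0.05, 0.02 and -0.01.

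Ctsg, Lyz2 and Prtn3, 3 measured of 8, were all called below 0 in the average, and their median was -0.91 to -0.39 on the young bone arrays, -0.73 to -0.28 in young marrow and -0.78 to -0.11 in the old group. Of the macrophage markers, 3 of 5 were measured, with a median of -0.47 to 0.00 in young bone, -0.09 to 0.02 in young marrow and -0.43 to -0.07 in the old group. Mpeg1 was called among them, at -0.40 (limma adjusted p = 0.0099). Of the erythroid markers 0 of 6 were measured. The part of granulocyte or macrophage number in the values of Il1rap, Itgb2, Cd52 and Cd63 was not tested.

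Differences between the groups were tested in the same fit, which compares the castration ratios of bone with marrow and of young with old mice. The old mice were also longer past the operation, so age and time since castration cannot be told apart. From young bone to young marrow 0 of 52 members passed, against 0% of all rows, with 2 at an unadjusted p under 0.05 (limma), against 4.67% of all rows. From young marrow to the old group 0 passed, against 0% of all rows, with 4 at an unadjusted p under 0.05, a smaller share than the 14.7% of all rows. From young bone to the old group 0 passed, against 0.0139% of all rows, with 3 at an unadjusted p under 0.05, against 6.82% of all rows. The channel reading also gave 0 in each.

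Itga6 was higher in young marrow than in young bone by 0.42 (95% interval 0.15 to 0.70, limma adjusted p = 0.93), and Ccrl2 by 0.48 (95% interval 0.11 to 0.85, limma adjusted p = 0.94). Cd163 was higher in the old group than in young marrow by 0.44 (95% interval 0.17 to 0.70, limma adjusted p = 0.34) and than in young bone by 0.45 (95% interval 0.18 to 0.72, limma adjusted p = 0.68). The difference of Itgb5, old group minus young marrow, was -0.56 (95% interval -0.92 to -0.20, limma adjusted p = 0.34). Itga3 and Itga1, a collagen-binding alpha chain, each had a difference of -0.36, old group minus young bone (limma adjusted p = 0.68 for both). Cd209a, a lectin of dendritic cells, differed by -0.59, young marrow minus young bone, with an interval that reached 0.02. None of these differences passed the threshold, so the call of Cd163 in the old group does not show that castration acted differently there. The differences between young and old mice also carry the longer time since the operation and the question whether the old specimens held bone.

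**Figure D4:**
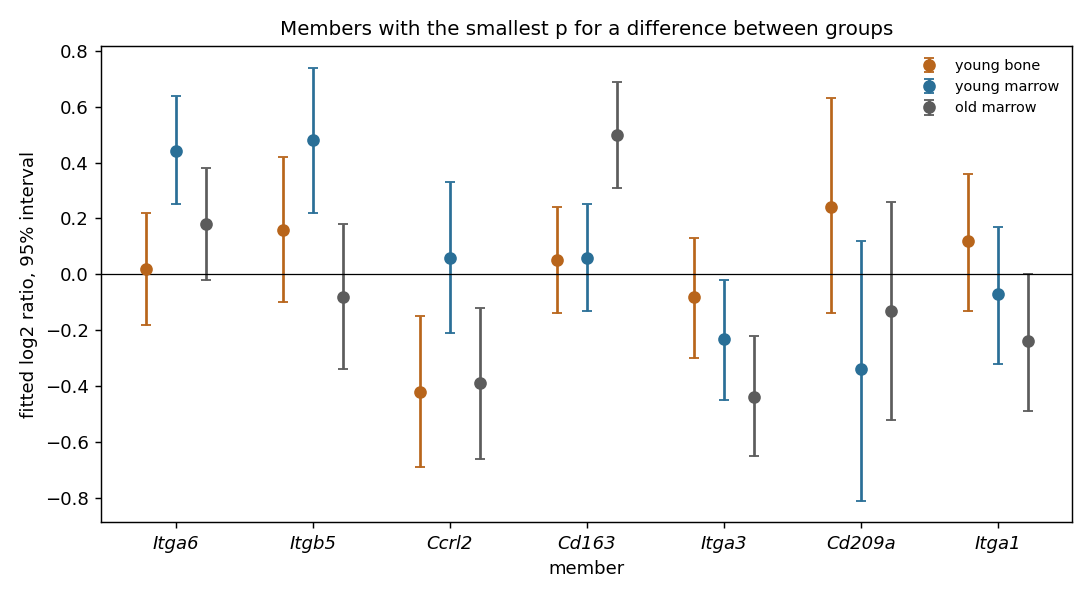
The fitted log2 ratio (point) and its 95% interval (bar), by group, for the 7 members among the 3 smallest p of any difference between groups. Itga6 and Itgb5 are highest in young marrow at 0.44 and 0.48, Ccrl2 is near 0 there at 0.06, and Cd163 is highest in the old group at 0.50.

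Both readings of the ratio were set side by side for every member. Averages of the 52 members ran from -0.52 to 0.48 with the deposited sign kept and from -0.17 to 0.25 under the channel reading. Of the 8 called members, Il18rap, Itgb2 and Itga3 were below 0 and Cd22 above 0 under both readings, with channel values of -0.15, -0.11, -0.03 and 0.04. Il1rap, Cd63 and Ccr7 changed sign, to 0.03, 0.10 and -0.17, and Cd52 came to 0.00.

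**Figure D5:**
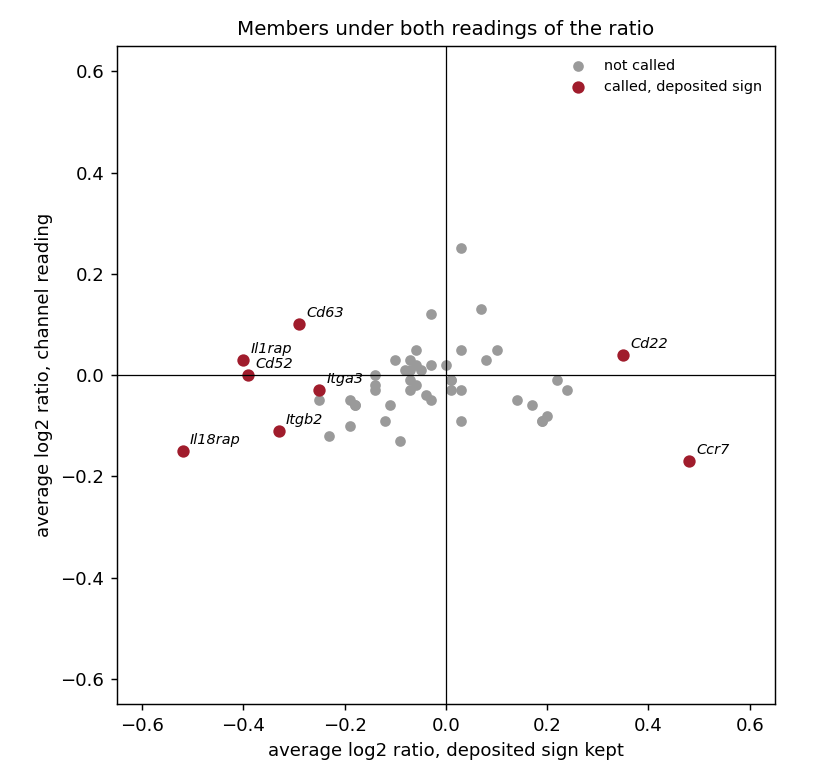
The average log2 ratio of the 52 members with the deposited sign kept (horizontal axis) against that under the channel reading (vertical axis, same scale), with the 8 called members in red. Points spread from -0.52 to 0.48 along the horizontal axis and from -0.17 to 0.25 along the vertical axis, and Ccr7 and Il18rap lie farthest out.

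Promoters of the called members were examined because members of several cell classes lay below 0 together. RefSeq windows of the 250 bases before the transcription start (build GRCm38.p6) at the first start listed were at hand for 38 of the 52 members and for 6 of the 9 called ones, Il18rap, Il1rap, Cd63, Itga3, Cd22 and Cd163. Both strands were searched for 3 motifs: GAGGAA, a core bound by the myeloid and B cell factor PU.1, CCCNNGGG, a core bound by the B cell factor EBF1, and AGAACA, a half-site of androgen and glucocorticoid receptors. GAGGAA was found in 9 of the 38 member windows (23.7%) against 23.3% of 32851 windows, CCCNNGGG in 10 (26.3%) against 11.8%, and AGAACA in 6 (15.8%) against 16.1%. A match describes the letters only, and the data hold no measure of binding. The 4 windows of called members with a match follow, each on the strand of its gene and written 5′ to 3′, with the match in capitals: Il18rap (chr1:40515112-40515361, plus strand) and Cd63 (chr10:128909095-128909344, plus strand) each with 2 matches to GAGGAA, Cd22 (chr7:30879029-30879278, minus strand) with 1 to CCCNNGGG, and Cd163 (chr6:124304401-124304650, plus strand) with 1 to AGAACA on the opposite strand.
Il18rap: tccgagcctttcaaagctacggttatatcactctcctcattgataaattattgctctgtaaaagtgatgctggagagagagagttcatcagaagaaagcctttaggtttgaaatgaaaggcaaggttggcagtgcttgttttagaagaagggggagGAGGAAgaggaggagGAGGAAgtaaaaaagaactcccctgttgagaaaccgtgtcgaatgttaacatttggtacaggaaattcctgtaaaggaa
Cd63: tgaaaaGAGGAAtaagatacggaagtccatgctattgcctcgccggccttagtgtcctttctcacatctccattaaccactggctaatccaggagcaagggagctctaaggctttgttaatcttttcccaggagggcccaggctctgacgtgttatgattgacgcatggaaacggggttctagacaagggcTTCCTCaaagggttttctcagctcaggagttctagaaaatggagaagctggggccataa
Cd22: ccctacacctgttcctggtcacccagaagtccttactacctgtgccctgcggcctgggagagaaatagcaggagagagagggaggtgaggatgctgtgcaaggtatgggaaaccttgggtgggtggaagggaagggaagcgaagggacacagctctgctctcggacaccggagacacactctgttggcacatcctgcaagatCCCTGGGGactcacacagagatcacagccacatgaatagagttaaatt
Cd163: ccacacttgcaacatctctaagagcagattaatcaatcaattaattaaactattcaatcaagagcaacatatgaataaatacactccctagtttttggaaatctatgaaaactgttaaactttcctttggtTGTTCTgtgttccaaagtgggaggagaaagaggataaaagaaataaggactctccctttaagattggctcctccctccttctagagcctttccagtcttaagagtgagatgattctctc
In Il18rap the matches begin 94 and 79 bases before the start, in a purine-rich stretch, and in Cd63 they begin 244 and 59 bases before it, the nearer one on the opposite strand. The match in Cd22 begins 48 bases before the start and that in Cd163 begins 119 bases before it, and no capitals of different motifs overlap in these windows. The windows of Il1rap and Itga3 held none of the 3 motifs.

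Partners of the receptors were counted from 3 lists. Of the integrin ligands, adhesion molecules and adaptor proteins, 12 of 32 were measured, with a median average of 0.03. In the average 1 was called, against 3.91% of all rows: Selp, the P-selectin of platelets and endothelium, at 0.29 (limma adjusted p = 0.048). Src, a kinase downstream of integrins, averaged 0.18 and fibronectin, Fn1, averaged -0.18 (limma adjusted p = 0.20 for both). In young marrow 1 gene of this list was called, below 0, against 0.739% of all rows. Fn1 had the lowest value of the list there, at -0.68, against 0.31 in young bone and -0.16 in the old group. Of the chemokine ligands, 9 of 34 were measured, with a median of -0.06 and 0 called (limma, 5 at an unadjusted p under 0.05, against 16.0% of all rows). Ccl9, a macrophage chemokine, averaged -0.26, Cxcl12, which holds stem cells in marrow through Cxcr4, averaged 0.25, and Cxcl14 averaged -0.26 (limma adjusted p = 0.078, 0.10 and 0.13). Of the interleukins and signalling proteins of their receptors, 22 of 50 were measured, with a median of 0.02 and 0 called in the average (limma, 4 at an unadjusted p under 0.05, near that share). Il1b, a ligand of the receptor that Il1rap completes, averaged -0.17, the signal inhibitor Cish averaged -0.26 and the transcription factor Stat2 averaged 0.18 (limma adjusted p = 0.10, 0.15 and 0.22). In the old group 1 gene of this list was called, below 0, against 0.851% of all rows. Cish had the lowest value of the list there, at -0.81, against 0.15 in young bone and -0.11 in young marrow.

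Members measured more than once gave a check on the features themselves. Among 16 members with several features, 14 had the same sign of the average on every feature, Ccr8 and Itgb1 being the exceptions. The gap between the highest and the lowest average of a member's features had a median of 0.03 and reached 0.14, for Ccr8 and Itgb1. Single arrays could differ by more: the features of Cd200 read 0.31, -0.53 and -0.29 on old replicate 1. For 11 of the 16 the features were repeated spots of one sequence accession, so that their closeness describes the spotting, not independent probes. The 9 members called in the average or in the old group rest on 1 feature each that met the filter, and 2 of them had a further spot of the same accession with too few values. That of Cd22 read 0.97 on young bone replicate 1, 0.58 and 0.12 on young marrow replicates 1 and 2, and 0.63 and 0.44 on old replicates 1 and 2, above 0 like the feature used. That of Itga3 read -0.15, -0.12 and 0.14 in young bone and 0.03 on old replicate 1, where the feature used read -0.66.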

How the data were processed

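The values used were the submitters' deposited log ratios, read as log2, of 11552 features on 9 two-dye arrays. Not given in the sources used here are their log base (natural logs remain possible), direction, background treatment and normalization. Per the labels' protocols, total RNA was made into aminoallyl cDNA and coupled to Cy3 or Cy5. Platform annotation gave a single gene to 8050 features, several to 672 and none to 2830, and 7880 gene identifiers matched RefSeq. Features with a value on at least 2 arrays of each group and on at least 1 array with the castrated mouse in Cy3 were kept (8885), and those of a gene were averaged, leaving 7170 rows. No scaling was added. Each row was fitted by least squares on group and a dye term, with limma 3.58.1 in R 4.3.3 (eBayes, prior df 5.11) and Benjamini-Hochberg adjustment over all rows, at a threshold of 0.05. The average weights the 3 groups equally. The fit was tested on simulated data. Tables and figures were made with Python 3.11.15, pandas 2.3.3 and matplotlib 3.10.9.

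Members were sorted into classes by the cells they are known from. A class is no limit of expression: Itgb2 stands with the myeloid members but is also carried by lymphocytes. The genes named are those called, the 3 with the smallest p per class and per difference between groups, those with one sign on every array, subunits of one receptor, and up to 3 per partner list. The members, the lists and the tests were chosen with earlier results of these data known. Alternatives were the channel reading, no dye term, the 6 arrays with the castrated mouse in Cy5 alone, centring, scaling, array weights, complete features, single features, a replicate block, and leaving out each array.

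Same-numbered replicates were checked for pairing by the correlation, across rows, of their deviations from the group means. For young bone and young marrow this was -0.09, -0.35 and -0.07 for numbers 1, 2 and 3, for young bone and the old group -0.04, -0.11 and 0.40, and for young marrow and the old group 0.58, 0.27 and 0.29. The numbers were not taken to pair the samples, since no label says that a number marks a shared animal or day. Old and young marrow of one number deviated together, but they also had the same dye orientation. In young bone the castrated mouse was in Cy3 on replicate 3, and in both marrow groups on replicate 2. Dye was not removed before this check, so it cannot tell pairing from dye. Whether young bone and young marrow of one number came from the same mice is not given in the sources used here.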

Additional observations from a re-analysis of the deposited data

How the results depend on the processing

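Of the 7 counts of called members, those in young bone, from young bone to young marrow and from young bone to the old group were 0 under every alternative run. In the average, where 8 members were called, the channel reading gave 0. The 6 arrays with the castrated mouse in Cy5 alone gave 1 (Il18rap, with 0.979% of all rows). Array weights gave 15 (with 10.8% of all rows), and leaving out an array gave 1 to 9 (with 1.03% to 6.46%). No dye term and centring gave 10 each (with 5.62% and 3.81% of all rows), and scaling 8 (7 of them shared, with 4.34%). Complete features gave 6 of 41 members (with 3.98% of all rows) and single features 8 (with 4.39%). In the old group, where Cd163 was called, the channel reading, the 6 arrays alone and scaling gave 0. No dye term gave 3 there (with 1.06% of all rows) and array weights 4 (with 1.84%). Leaving out an array gave 0 to 13, with 13 (and 16.0% of all rows) only without old replicate 3. In young marrow, with 0 called, no dye term gave 1 (with 0.934% of all rows), scaling 3 (1.51%) and array weights 17 (18.6%). Leaving out an array gave 0 to 4 there, with 4 (and 1.51% of all rows) only without old replicate 3. From young marrow to the old group, with 0 called, leaving out an array gave 0 to 5. The 5 came only without old replicate 3, where 10.6% of all rows were called. Under the channel reading the averages of Ccr7 (-0.17), Cd52 (0.00), Cd63 (0.10) and Il1rap (0.03) and the old group value of Cd163 (0.00) no longer had the deposited sign. The cause of these shifts was not tested.

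With the replicate block, 7 members were called in the average, 6 of them shared, with Cxcr5 added (adjusted p = 0.038), Itgb2 and Itga3 lost (adjusted p = 0.058 and 0.065, limma) and 3.8% of all rows called, and it changed no other count of called members, from young marrow to the old group included. Not every array correlated best with its own number. Signal over background is unknown, since intensities were not used here.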
